A study of Mus musculus with 3 samples.

Results

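The genes described here are the variable (V) segments of the mouse immunoglobulin heavy chain locus, Ighv. They were chosen as the rows of the deposited count table whose biotype is IG_V_gene and whose symbol starts with Ighv, which gave 113 of 48709 genes. All 113 lie on the minus strand of chromosome 12, and their coordinates in the table are identical to those of the mouse GRCm38 annotation (GENCODE release M21). They span 113578504 to 116000461, from Ighv5-2, the member nearest the diversity (D) segments, to Ighv1-85, the farthest.

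An antibody heavy chain is assembled in a developing B cell, which joins 1 V, 1 D and 1 joining (J) segment by cutting and ligating its DNA. The joined exon is then spliced to a constant region, such as Ighm of immunoglobulin M or Igha of immunoglobulin A, and each B cell clone carries its own choice of V segment. Resting B cells hold moderate amounts of this RNA, whereas plasma cells, the antibody-secreting stage, hold very large amounts, and in lung and other mucosal tissue many of them make immunoglobulin A.

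RNA-seq of FACS-sorted mouse lung cells gave 3 libraries, labelled as wild-type (WT) smooth muscle cells and forming 1 group. All the mice were transgenic for tdTomato, a red fluorescent protein, and for creERT2 under smooth muscle actin, a Cre recombinase that tamoxifen switches on. They were given tamoxifen at 75 mg/kg a day for 10 days from 8 weeks of age, and the lungs were taken 2 months later. The libraries held 16877297 to 18896263 counts, and there was no other group to compare with, so levels are given per library and differences are those between replicates. The labels state neither the gate of the sort nor the strain of the mice, and nothing says that each library came from its own mouse, so the spread may be technical in part.

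Transcripts of B cells were abundant in these libraries. A list of 12 B cell markers summed to 787, 1227 and 1655 CPM (reads counted for a gene in every 1000000 of that library) in WT libraries 1, 2 and 3, and none of the 12 was at 0. A list of 10 plasma cell markers summed to 248, 662 and 506 CPM, and one of 8 T cell markers to 963, 978 and 719 CPM. A list of 8 smooth muscle markers, the cell type of the label, summed to 85.5, 106 and 79.2 CPM. Of these 8, 7 reached a mean of 1 CPM, led by Myh11 at 20.2, 32.2 and 20.6 CPM. The other, calponin, Cnn1, had 0, 7 and 5 counts. In bulk RNA of this kind, fewer cells of a type and less RNA per cell cannot be told apart.

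The germline ends of the leading members are shown because this is where the V segment is joined to D, and because the members resemble each other so closely that reads are hard to assign. Each line gives the last 60 bases of the V exon, read 5′ to 3′ on the minus strand of GRCm38 from GENCODE M21 transcripts, with the last cysteine codon and all that follows it in capitals.
Ighv1-26 (chr12:114788372-114788431): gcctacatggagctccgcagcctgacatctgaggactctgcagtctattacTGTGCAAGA
Ighv1-72 (chr12:115757984-115758043): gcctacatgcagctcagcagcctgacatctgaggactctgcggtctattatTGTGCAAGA
Ighv1-55 (chr12:115208095-115208154): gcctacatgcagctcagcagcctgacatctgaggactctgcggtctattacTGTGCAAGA
Ighv5-17 (chr12:113859149-113859208): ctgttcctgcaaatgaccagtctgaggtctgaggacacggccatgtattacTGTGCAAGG
Ighv14-2 (chr12:113994469-113994528): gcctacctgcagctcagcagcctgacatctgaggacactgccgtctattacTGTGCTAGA
Ighv9-3 (chr12:114140692-114140751): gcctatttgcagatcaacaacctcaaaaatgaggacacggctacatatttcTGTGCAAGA
The 9 letters TGTGCAAGA, searched on the coding strand in the last 30 bases, were found in 63 of 113 members (55.8%) and in 21 of 70 Ighv pseudogenes (30%). Of the 53 members of subgroup Ighv1, 46 held them, so most members of that subgroup share this end. Subgroups are families of V segments that resemble each other, and the first number of the symbol names them. Over the last 280 bases, the median identity of 2 members was 85.0% within Ighv1, 89.0% within the other subgroups and 57.8% between subgroups.

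Sequence shared between members bears on every value below. Of the 113 members, 81 had more than 10% of their 50-base words in transcripts of another gene, and 20 had no such word. The median share was 21.9%. How reads that match several genes were counted is not stated in the labels, so the level of a single member in a closely related pair is uncertain, while sums over subgroups are less affected where the relatives belong to the same subgroup. Only 2 members overlapped another annotated gene, Ighv1-5 a microRNA gene on its own strand and Ighv1-62-1 the gene Gm19331 on the opposite strand.

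Transcripts of V segments were detected for most members, and their summed level differed several-fold between libraries. Of 113 members, 108 had a count, 81 had a count in each of the 3 libraries, and 96 reached 10 counts in all. A mean of at least 1 CPM was reached by 79 and of at least 10 CPM by 17. The sum over members was 4555, 19382 and 6073 counts in libraries 1, 2 and 3, or 241, 1056 and 359.8 CPM, with a mean of 552 ± 440.2 CPM (SD, n = 3). Per 1000000 counts of nuclear protein-coding, immunoglobulin and T cell receptor genes alone, the mean was 920.1. Library 2 stood apart, at 4.38 times the level of library 1 and 2.93 times that of library 3, and without it the mean was 300.4 CPM.

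Other immunoglobulin transcripts did not all follow the same order of libraries. V segments of the light chains, which pair with the heavy chain in an antibody, summed to 285, 1301 and 659.6 CPM over 103 Igkv and Iglv genes, and were also highest in library 2. Igha, the constant region of immunoglobulin A, had 264, 2001 and 469.7 CPM, a level in library 2 that was 7.57 times that of library 1. The 4 Ighg genes of immunoglobulin G summed to only 21.7, 65.2 and 36.7 CPM. By contrast Ighm had 511, 709 and 856 CPM and Ighd, the constant region of immunoglobulin D found on resting B cells, 124, 154 and 259.9 CPM, so that both were highest in library 3. Igha made up 28.7%, 68.3% and 28.9% of the counts of heavy chain constant genes.

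Marker lists moved with these transcripts in both ways. By a chi-square test of equal levels, described with the members below, 70.0% of all genes tested varied between libraries, 22.0% with their highest level in library 2 and 19.9% in library 3. All 12 B cell markers varied and were highest in library 3, among them the transcription factor Pax5 at 155, 237 and 309 CPM and the receptor subunit Cd79a at 114, 172 and 233 CPM. Of the 10 plasma cell markers, 9 varied, and each was highest in library 2 with library sizes scaled by the TMM method. With unscaled library totals that held for 8, and Irf4 was highest in library 3, at 51.1, 102 and 104 CPM. Jchain, which links immunoglobulin A and M into larger complexes, had 51.8, 354 and 243 CPM, and Prdm1, the factor that drives plasma cell formation, had 19.7, 21.6 and 23.2 CPM (chi-square test, adjusted p = 0.710). Of the 8 T cell markers, 8 varied and 5 of these were highest in library 2. Of the 8 smooth muscle markers, 6 varied and 4 of these were highest there. The part that plasma or B cell content had in the Ighv levels was not tested.

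**Figure D1:**
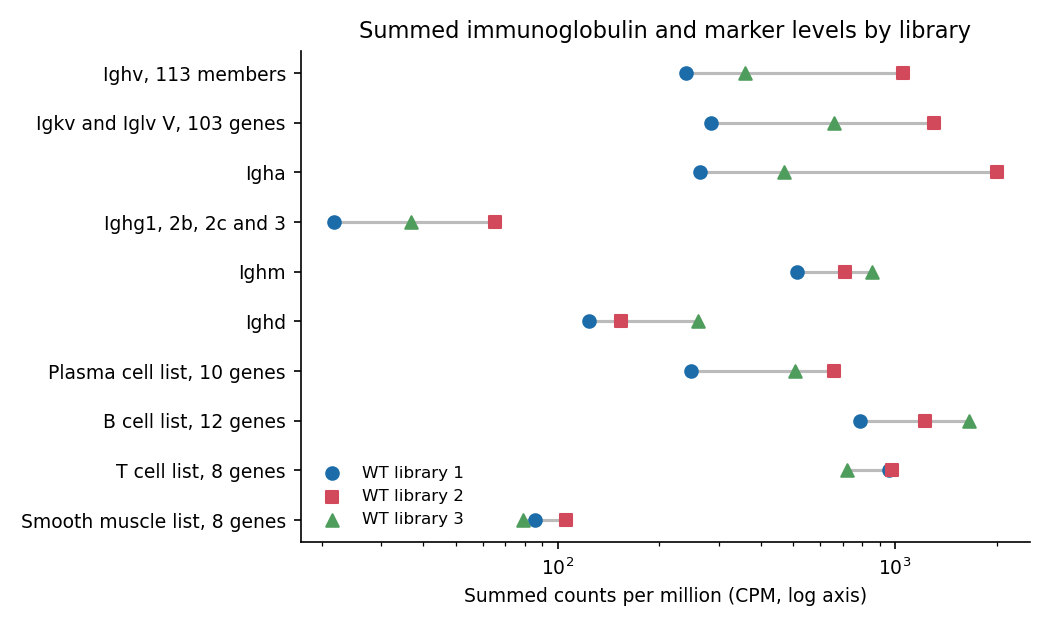
Summed level of immunoglobulin genes and marker lists in each library, in CPM on a log axis, with 1 point per library and a grey line from the lowest to the highest. Ighv, light chain V, Igha, Ighg and the plasma cell, T cell and smooth muscle lists were highest in library 2. Ighm, Ighd and the B cell list were highest in library 3.

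Most members took part in the difference between libraries. Each gene with at least 10 counts was tested for equal levels in the 3 libraries with a chi-square test, given TMM library sizes and with Benjamini-Hochberg adjustment over 23317 genes. At an adjusted p under 0.05, 89 of the 96 members tested varied, against a background of 70.0% of all genes tested. Of the 96 tested, 70 varied and were highest in library 2, against 22.0% of all tested genes. Another 9 of the 96 varied and were highest in library 1 (all tested genes 28.2%) and 10 in library 3 (19.9%). Those that varied and were lowest in library 1 numbered 62 of the 96 (28.2%), in library 2 7 (22.5%) and in library 3 20 (19.3%). Of the 96, 54 varied in the order of library 2 over 3 over 1 (14.7%). Without library 2, 59 of 89 members tested varied, against 53.4% of all genes, without library 1, 73 of 91 (38.2%), and without library 3, 81 of 91 (56.8%). With unscaled library totals 88 of 96 varied (72.1%), and again 70 were highest in library 2, and with DESeq2 size factors 89 of 96 varied (70.1%). With a minimum of 100 counts 66 of 66 varied (75.2%), and with a minimum of 1 count 89 of 108 (53.3%). The test covers counting error only, and with these depths it calls small differences.

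The size of the spread was also larger than that of a typical gene. Its median over the members tested, as the biological coefficient of variation (the SD between replicates relative to the mean, once counting error is taken off), was 0.610, beside 0.354 over all genes tested. Over the 19466 genes with 10 counts up to the highest count of a member, the median coefficient was 0.434. In the median member, 12.02%, 60.8% and 22.8% of the summed CPM came from libraries 1, 2 and 3. Over all genes tested these medians were 31.4%, 32.4% and 35.2%. More than 50% of the summed CPM came from library 2 for 65 of 96 members and for 8.11% of all genes tested. For the 96 light chain V genes tested, the median share from library 2 was 54.4% and the median coefficient 0.601.

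The leading member in each of the 3 libraries was Ighv1-26 (chromosome 12, 114788372 to 114788805). It had 388, 1194 and 574 counts, or 20.5, 65.0 and 34.01 CPM. Its level per kilobase of exon, 114 CPM, was the highest of the 113 members, followed by Ighv1-72 at 65.5 and Ighv1-55 at 55.2 CPM per kilobase. Its share of all Ighv counts was 8.52%, 6.16% and 9.45%, with 95% Wilson intervals of 7.74% to 9.36%, 5.83% to 6.51% and 8.74% to 10.2%, which cover counting error only. So the segment that led in every library had its lowest share in library 2, where its level was highest. Of the words of Ighv1-26, Ighv1-72 and Ighv1-55, 49.0%, 92.5% and 38.0% occur in other genes, so their ranks are uncertain.

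Ighv1-72 had 19.7, 44.3 and 13.7 CPM and Ighv1-55 had 6.51, 51.8 and 10.5 CPM. The next members by mean level were Ighv5-17 at 7.25, 42.6 and 3.97 CPM and Ighv1-53 at 7.78, 32.1 and 10.9 CPM. All 15 members with the highest mean had their highest level in library 2. Library 2 adds most to the mean, so a ranking by the mean favours members that are high there. Of the 15, only Ighv1-72, Ighv5-17 and Ighv1-62-3 had a lower level in library 3 than in library 1. For Ighv1-53 the share of Ighv counts was nearly the same in the 3 libraries, at 3.23%, 3.04% and 3.03%, and the same held for Ighv1-69 at 2.88%, 2.93% and 2.602%. For Ighv1-80, at 3.02, 41.2 and 5.39 CPM, the share was 1.25%, 3.90% and 1.498%.

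**Figure D2:**
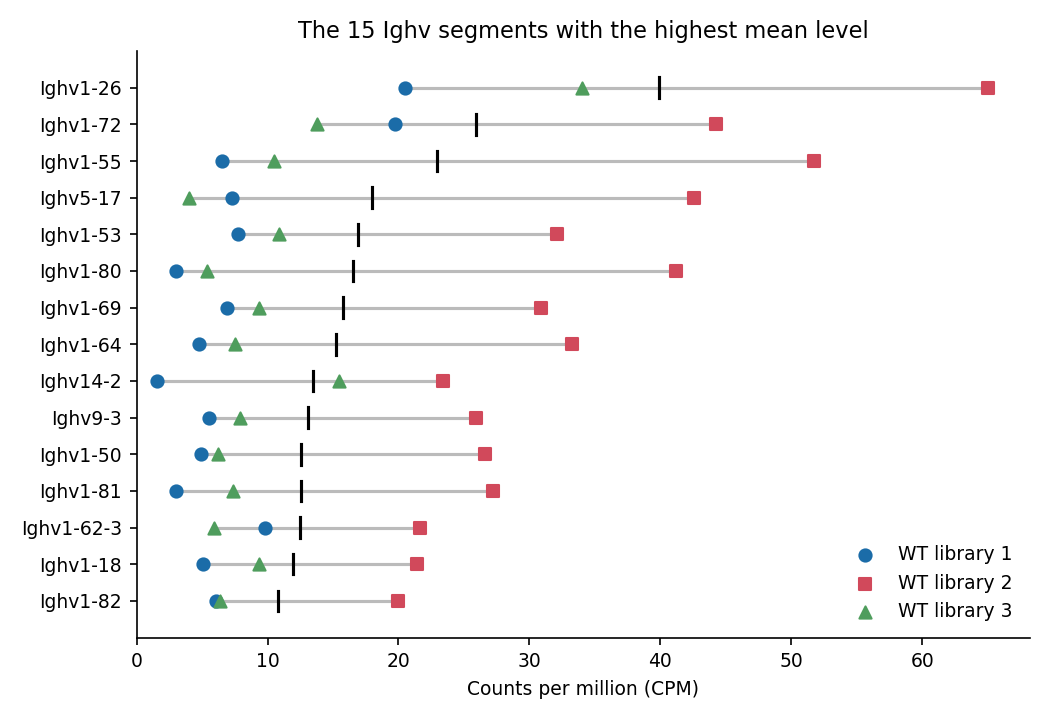
Level in CPM of the 15 Ighv segments with the highest mean, with 1 point per library, a black bar at the mean and a grey line from the lowest to the highest. Library 2 is the highest point in each row, which ranking by the mean favours, and Ighv1-26 leads with 20.5, 65.0 and 34.01 CPM.

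Lists of the 10 leading members differed between libraries beyond a shared core. Ighv1-26, Ighv1-53, Ighv1-55, Ighv1-69 and Ighv1-72 were in the list of each library. Library 3 was the only one whose list held Ighv14-2 (1.59, 23.4 and 15.5 CPM), which took 0.659%, 2.21% and 4.30% of Ighv counts, with Wilson intervals that did not overlap. Ighv1-84 took 2.63%, 0.826% and 4.25%, and was in the lists of libraries 1 and 3. Across the 113 members, levels on the log2(CPM + 1) scale had a Pearson r of 0.68 between libraries 1 and 2, 0.74 between 1 and 3, and 0.84 between 2 and 3 (Spearman's rho 0.70, 0.75 and 0.84). Members are not independent of each other, since they share sequence and library depth.

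Several members with the widest ranges between libraries were nearly absent from library 1. Ighv1-19 (chromosome 12, 114708648 to 114709135) had 4, 489 and 91 counts, and Ighv1-9 (114583569 to 114584002), which shares 0.576% of its words with other genes, had 1, 386 and 93. Ighv1-42 had 3, 359 and 29 counts and Ighv3-8 had 3, 203 and 12. In each of these, library 2 exceeded library 3, and library 3 exceeded library 1. Ighv5-12 broke that order with 31, 454 and 11 counts, as did Ighv5-17 with 137, 782 and 67. For Ighv1-19 the adjusted p of the chi-square test was 1.99e-147 and for Ighv5-12 it was 1.16e-162. Both were picked for their range between these same libraries, so low values were bound to follow and add no evidence.

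A smaller group of members was highest outside library 2. In library 1, Ighv4-1, the only member of its subgroup, had 5.08 CPM against 1.85 and 1.36 in libraries 2 and 3, and its share of Ighv counts was 2.11%, 0.175% and 0.379%. In library 3, Ighv1-84 had 15.3 CPM against 6.35 and 8.72 in libraries 1 and 2. Ighv15-2, again the only member of its subgroup, had 0, 0 and 12 counts, and Ighv5-2 had 0, 0 and 11. A count of 0 allows a level of up to 0.159, 0.163 and 0.178 CPM in libraries 1, 2 and 3, for counting error only.

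**Figure D3:**
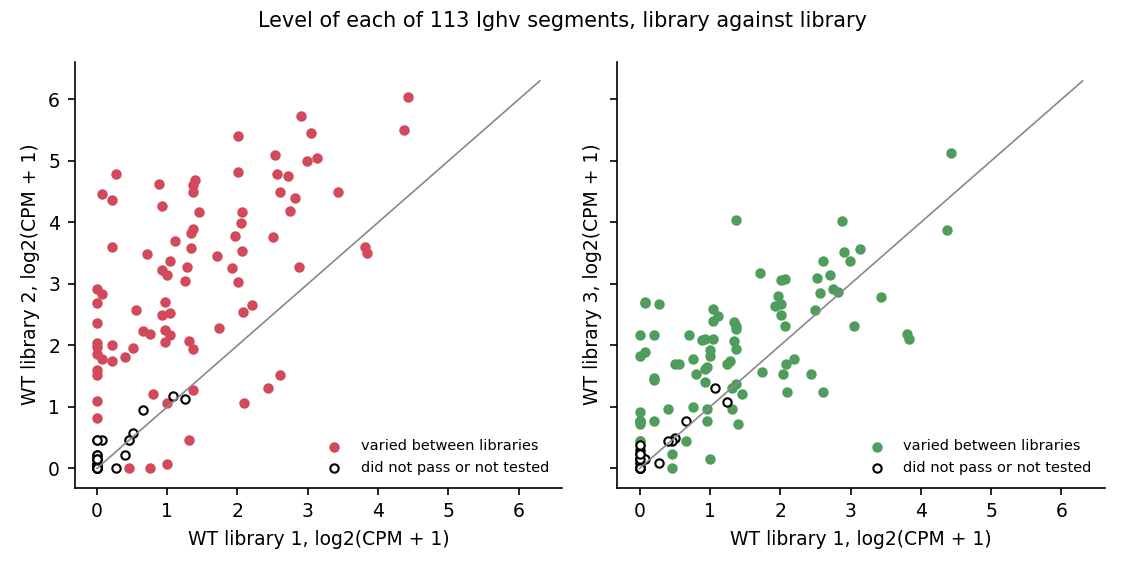
Level of each of 113 members in library 2 (left) and library 3 (right) against library 1, as log2(CPM + 1), with the line of equal levels. Filled points varied between libraries by the chi-square test. In the left plot most filled points lie above the line, and many sit near 0 in library 1.

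The closest pair of members had almost the same counts. Ighv1-62-2 (chromosome 12, 115446409 to 115446869) had 251, 190 and 56 counts, and Ighv1-71 (115742205 to 115742647) had 246, 204 and 60. Their transcripts differ at 1 of 359 aligned bases, and 91.8% and 97.4% of their words occur in other genes, so neither value can be assigned to 1 of them. Both were highest in library 1, each at more than 5% of its Ighv counts (5.51% and 5.40%), against about 1% in libraries 2 and 3 (0.980% and 1.05%, then 0.922% and 0.988%). The second closest pair, Ighv1-72 and Ighv1-62-3, differs at 3 of 396 aligned bases. Of these, 2 fall within the 78 bases shown here to make plain how few positions separate them (GRCm38, minus strand, 5′ to 3′, differences in capitals).
Ighv1-72 (chr12:115758208-115758285): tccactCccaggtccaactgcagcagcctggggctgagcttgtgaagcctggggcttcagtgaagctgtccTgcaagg
Ighv1-62-3 (chr12:115461223-115461300): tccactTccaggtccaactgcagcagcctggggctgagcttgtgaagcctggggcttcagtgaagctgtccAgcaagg
Ighv1-62-3 had 185, 397 and 100 counts against 373, 813 and 232 for Ighv1-72. The levels of this pair were unequal in each library. Ighv3-3 and Ighv7-4 had identical counts, 0, 0 and 2, which at this depth carries no information.

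Members of subgroup Ighv1, the largest in the mouse, dominated the counts. They are 53 of 113 members (46.9%) and took 68.9%, 69.4% and 66.2% of Ighv counts, a mean of 68.2% ± 1.74 (SD, n = 3). Their median member had a mean of 5.56 CPM, against 2.56 over all 113 members. Of the 17 members at 10 CPM or more, 14 belonged to Ighv1, and the others were Ighv5-17, Ighv9-3 and Ighv14-2. Over all members, the share of Ighv1 thus moved by only a few percentage points between libraries while its summed level was 166, 733 and 238 CPM. Without the 81 members that share over 10% of their words, the share of Ighv1 was 48.3%.

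Smaller subgroups changed their share more in relative terms. In percentage points only Ighv14, with an SD of 2.55 between libraries, moved more than Ighv1 with 1.74. Ighv14, with 4 members, took 1.58%, 3.97% and 6.69% of Ighv counts in libraries 1, 2 and 3, led by Ighv14-2. Ighv8, with 9 members, took 0.724%, 3.73% and 2.35%, led by Ighv8-8 at 0.847, 23.5 and 3.26 CPM. In the other direction Ighv2, also with 9 members, took 7.22%, 3.78% and 5.30%. Each of these 3 subgroups had Wilson intervals that did not overlap between any of the libraries. Ighv5, the second largest with 10 members, took 7.07%, 8.98% and 6.57%, and Ighv3 stayed between 2.70% and 3.15%.

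Ighv11-2 and Ighv12-3, known for B-1 cells, a self-renewing B cell type that makes natural antibodies, were not among the leading members. Ighv11-2 (chromosome 12, 114048241 to 114048812) and Ighv12-3 encode V regions that B-1 cells use against the membrane lipid phosphatidylcholine. Ighv11-2 had 30, 26 and 48 counts, or 1.59, 1.42 and 2.84 CPM, and varied between libraries with an adjusted p of 0.0304 in the chi-square test. The median member had 0.953, 3.87 and 1.96 CPM in libraries 1, 2 and 3, so Ighv11-2 was below it in library 2 only. Ighv12-3 had 7, 7 and 6 counts, and Ighv13-2, its neighbour on the chromosome, 8, 9 and 7, and neither passed the test (adjusted p = 0.954 and 0.893). These 3 did not share the high level of library 2. Ighv11-1 shares 52.3% of its words with Ighv11-2, so the split of reads between them is uncertain.

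**Figure D4:**
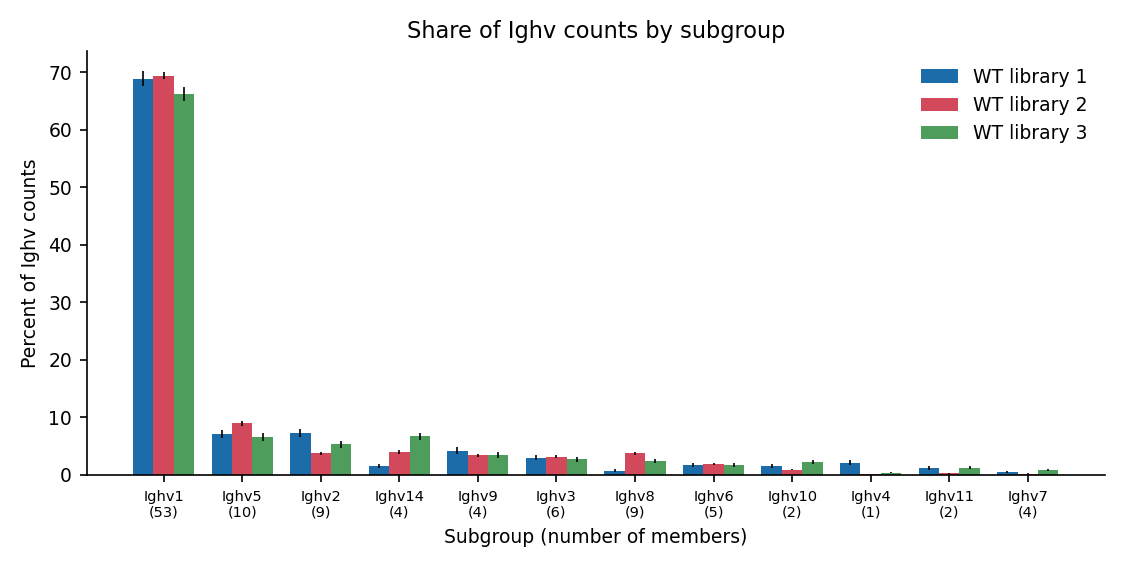
Percent of all Ighv counts taken by each subgroup with a member at a mean of 1 CPM or more, with 1 bar per library and 95% Wilson intervals as error bars. Ighv1 took 68.9%, 69.4% and 66.2%, and Ighv4, Ighv8 and Ighv11 show the largest relative differences between libraries.

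Position along the locus was described next, since V segments near the D segments and far from them are joined under different constraints during B cell development. Members were ordered from the D segments outward. The 38 nearest took 24.1%, 20.9% and 24.98% of Ighv counts in libraries 1, 2 and 3, the 37 in the middle 22.9%, 28.9% and 30.6%, and the 38 farthest 53.1%, 50.1% and 44.4%. The means were 23.3% ± 2.13, 27.5% ± 4.10 and 49.2% ± 4.43 (SD, n = 3). In each of the 3 libraries the farthest members held the most counts. All Ighv1 members start at 114487136 or beyond, where few other members lie, so position and subgroup go together. The median member had a mean of 1.93, 1.69 and 5.94 CPM in the near, middle and far part.

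**Figure D5:**
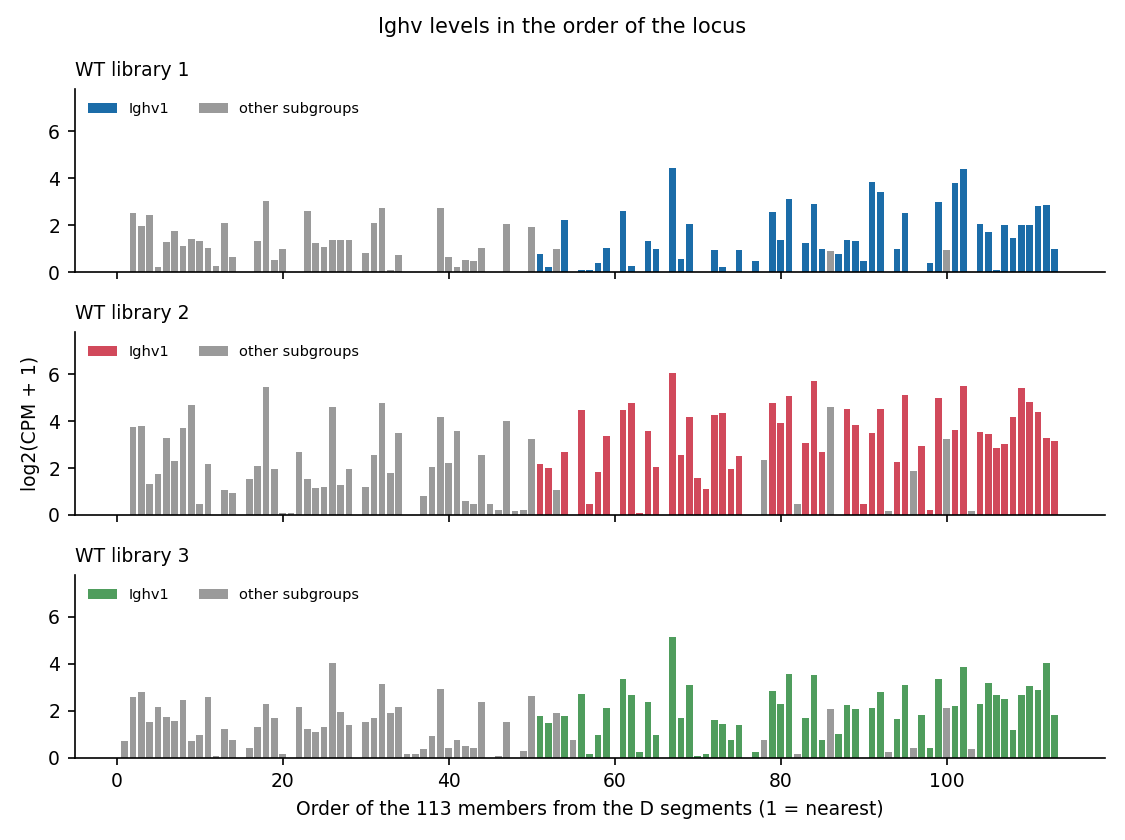
Level of every member, as log2(CPM + 1), in the order of the locus from the D segments, with 1 panel per library. Coloured bars are Ighv1 members and grey bars the other subgroups. Ighv1-26, in the middle of the locus, is the tallest bar in each panel, the far members hold the most counts, and Ighv5-17 is the tallest near member in libraries 1 and 2.

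Counts were spread over many segments in each library. The effective number of segments, the inverse of the summed squared shares, which equals the number of members if all are equally used, was 30.5, 41.8 and 39.5 (mean 37.3 ± 5.99, SD, n = 3). The 10 leading members of each library took 46.1%, 37.4% and 37.4% of its Ighv counts, and the first member alone 8.52%, 6.16% and 9.45%. Members with a count numbered 85, 101 and 104. At an Ighv count of 4555, that of library 1, 94.5 would be expected in library 2 and 103 in library 3, so library 1 had the fewest at an equal Ighv count as well. Over all genes, those with a count numbered 24939, 26207 and 30433 in libraries 1, 2 and 3, which is the same order. For light chain V segments the effective number was 33.3, 24.3 and 34.9, lowest in library 2, where that of Ighv was highest.

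No count was found for 5 members, Ighv2-7, Ighv16-1, Ighv1-16, Ighv1-24 and Ighv8-4, and 12 more had 1 to 9 counts. Of the 5, 4 have an annotated open reading frame from a start codon to the joining end, as do 109 of the 113. Ighv1-16 and Ighv1-24 resemble each other in 98.2% of the bases compared. At this depth each is limited to 0.178 CPM in the shallowest library.

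Ighv pseudogenes, V loci annotated as unable to encode a chain, were measured as the background of the locus. The 70 of them summed to 246, 912 and 299 counts, which is 5.12%, 4.49% and 4.69% of the counts over members and pseudogenes together, a mean of 4.77% ± 0.322 (SD, n = 3). Per kilobase of exon the median pseudogene had 0.0552 CPM, against 6.68 for the median member. Only 5 pseudogenes reached a mean of 1 CPM. The highest, Ighv1-62 (chromosome 12, 115371986 to 115372433), had 117, 330 and 72 counts and shares 54.2% of its words with other genes, and with Ighv1-21 it held 54.5% of all pseudogene counts. Of 17 pseudogenes with at least 10 counts, 15 varied (all tested genes 70.0%), and 14 of the 17 varied and were highest in library 2 (22.0%).

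The other parts of the heavy chain were compared with the V segments within each library. Ighv counts per 100 counts of constant genes were 26.2, 36.04 and 22.2, and the log2 ratio of V to constant counts was -1.86 ± 0.36 (SD, n = 3). Per kilobase of exon it was 0.69 ± 0.46, so its sign depends on the length of the constant genes. The log2 ratio to light chain V counts was -0.24, -0.30 and -0.87, below 0 in each library, with a mean of -0.47 ± 0.35. The 4 J segments, which are far shorter, summed to 103, 252 and 160 counts, led by Ighj4 at 46.6%, 44.0% and 47.5% of them. Of 17 D segments, 5 had a count, 25 counts in all.

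The 7 genes of V(D)J recombination and the pre-B receptor summed to 10.6, 8.23 and 8.89 CPM. Most of this was Vpreb3, a gene related to the surrogate light chain, at 6.09, 4.36 and 6.04 CPM. Of the 3 that reached 10 counts, Dntt, which adds bases at the joints, varied, with 47, 30 and 12 counts. Rag1, a subunit of the recombinase, had 39, 41 and 26 counts, and Rag2 had 0, 0 and 5. Igll1, a part of the surrogate light chain of pre-B cells, had no count, while Vpreb1 had 0, 0 and 4 and Vpreb2 0, 0 and 1.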

How the data were processed

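RNA was sequenced from 3 libraries of sorted mouse lung cells (1 group, WT), made with a stranded total RNA kit per the labels' protocols. The authors' deposited table holds raw read counts per gene, not normalized. Tools named in the submitters' processing notes are STAR 2.6.1d, featureCounts 1.6.3 of Subread, Trimmomatic 0.38, DESeq2 1.18.1 and FastQC, without their order or their strand and multi-mapping settings. The notes name human builds (hg38, GRCh38), whereas the IDs are mouse and the coordinates of all 113 members match GRCm38. Count columns, named as controls 1 to 3, were assigned to WT libraries 1 to 3 by number.

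CPM are counts per 1000000 library counts. Variation between libraries was tested over all 23317 genes with at least 10 counts (chi-square, TMM sizes from edgeR 4.0.16 in R 4.3.3, Benjamini-Hochberg at 0.05, scipy 1.17.1), and the spread was estimated as edgeR's tagwise dispersion with an intercept alone; both were tested on simulated data. With 1 group there is no contrast for a quasi-likelihood test. Sums, shares and ratios are given as mean ± SD with no test; an exact sign-flip permutation p over 3 libraries cannot fall below 0.25. Shared sequence is the percentage of a member's 50-base words in GENCODE M21 transcripts of other genes. Members named were the 15 highest, the highest of each subgroup, the 10 of widest range on the CPM + 1 scale, pairs with equal counts and the highest pseudogene; Ighv1-62-2, Ighv1-71, Ighv1-84, Ighv5-2, Ighv11-1, Ighv1-21 and the members without a count were added after their values were seen. Members and lists were chosen with earlier results of these data known. Library scaling, count and CPM minimums, indices, length, shared sequence and leaving out each library were varied. Sequence at the recombination signals and promoters was not used here. One of the gene lists is not reported here.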

Additional observations from a re-analysis of the deposited data

How the results depend on the processing

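Over 58 alternatives to 10 results, 46 left the value within its spread or tolerance, 11 moved it and 1 reversed it. For results given as mean ± SD, leaving out 1 library cannot shift the mean by as much as 1 SD. Those alternatives were bound to stay within the spread, so the 46 overstate how steady the results were. Leaving out the 81 members that share over 10% of their words keeps 32 members and moved most results: the summed level fell to 47.6 CPM, members at a mean of 1 CPM or more to 11, members that varied to 17 of 21 tested, the effective number to 7.31, the share of Ighv1 to 48.3% and that of the members nearest the D segments to 16.5%, while the median biological coefficient of variation rose to 0.860. Fewer members are counted there by construction. Beside the 17 of 21 that varied, the share over all genes tested was 70.0%. Leaving out 1 library gave 59 to 81 varying members, lowest without library 2, and all of those were among the 89. The effective number was 53.7 by Shannon entropy, and an estimator without depth bias, chosen after seeing the data, gave 37.4. With a wider window, up to the middle member of the locus, those nearest the D segments held 32.4% of counts. The log2 ratio of V to constant counts was -0.59 with Ighm alone and 0.69 per kilobase. TMM scaling, tried for the summed level, the members at 1 CPM or more, the varying members and the coefficient, and DESeq2 size factors, tried for the summed level and the varying members, moved none of these. A denominator of nuclear protein-coding, immunoglobulin and T cell receptor counts raised the summed level to 920.1 CPM, within 1 SD. No paired analysis was possible because there is 1 group.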
